A study of Mus musculus with 6 samples.

Results

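Secreted and cell-surface proteins of the axon guidance families were followed in serum-starved NIH3T3 cells, a mouse fibroblast line grown from embryos. The set was chosen with earlier results of these data known. Its genes were every row of the deposited count table whose symbol named a semaphorin, plexin, neuropilin, ephrin, Eph receptor, Slit, Robo or netrin. Rows named as Dcc, Neo1 or an Unc5 receptor were included too. This gave 60 of 16000 genes, of which 47 passed the filter on low counts and were tested. The libraries were 3 of RAI16 knockout NIH3T3 cells (KO) and 3 of wild-type NIH3T3 cells (WT), and all cells of both groups were starved of serum. The design asks which transcripts differ between KO and WT cells in that state. The sources used here do not give how the knockout was made, whether it is 1 clone, or whether each library had its own culture. Each p-value is thus set against the variation among 3 libraries a group, possibly technical, and a difference between clones cannot be told apart from an effect of the genotype. In bulk RNA, fewer cells that express a gene and less RNA per cell cannot be told apart either.

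Guidance cues were named for steering growth cones, and the same proteins set contact, spreading and migration in many cells outside the nervous system, fibroblasts included. Semaphorins bind plexins, and most secreted semaphorins also need a neuropilin as coreceptor. Ephrins are held on the membrane and signal to Eph receptor tyrosine kinases on the neighbouring cell, with signals running both ways. Slits act on Robo receptors. Netrins act on Dcc and neogenin (Neo1), which tend to attract, and on Unc5 receptors, which tend to repel.

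Total counts ran from 17805417 to 18368760 in KO libraries and from 16741607 to 17482451 in WT libraries. The targeted gene, RAI16, is listed as Fam160b2, and it had 410, 394 and 390 counts in KO libraries 1, 2 and 3, against 440, 375 and 411 in WT libraries 1, 2 and 3 (log2 fold change −0.12 ± 0.075 SE, adjusted p = 0.184). A count over the whole gene does not check a small lesion, so the group names rest on the labels. KO replicate 2 stood apart: its counts differed from those of KO replicates 1 and 3 by a chi-square of 29.3 and 27.2 per degree of freedom, against 1.72 between KO replicates 1 and 3 and 1.91 to 2.27 between WT libraries. Of the markers, all 10 for fibroblasts lay above 1 FPKM in every library, with summed levels of 6500 to 6771 FPKM in KO and 6073 to 6212 FPKM in WT. Lists for other cell types had far lower sums. The sums for 9 neuronal genes were 11.8 to 12.4 FPKM in KO and 8.15 to 8.64 FPKM in WT, and those for 6 glial genes were 0.518 to 0.771 FPKM in KO and 1.70 to 1.72 FPKM in WT. They were 2.55 to 3.35 FPKM in KO and 0.986 to 1.28 FPKM in WT for 10 endothelial genes, and 2.50 to 3.22 FPKM in KO and 0.966 to 1.18 FPKM in WT for 6 epithelial genes. For 6 leukocyte genes they were 12.56 to 15.96 FPKM in KO and 15.5 to 16.2 FPKM in WT. Of the 5 tested neuronal genes 1 rose and 3 fell (median log2 fold change −2.78): Syn1, with 33.8 ± 2.33 CPM in KO and 15.1 ± 1.15 CPM in WT, rose, while Map2 (−2.78), Slc17a7 (−4.54) and Gad1 (−7.03) fell. Of the endothelial genes, Flt1 had 21.5 ± 2.77 CPM in KO and 6.23 ± 0.478 CPM in WT. No marker in the table was at 0 in all 6 libraries, but the neuronal Rbfox3 and Stmn2 averaged at most 0.0400 CPM in either group and the endothelial receptor gene Kdr averaged 0.127 CPM in KO and 0 in WT. The part of these markers in the results was not tested.

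Receptors were mostly lower in KO cells, while ligands went both ways. Of the 47 tested guidance genes, 14 rose and 21 fell in KO at an adjusted p under 0.05 in edgeR's quasi-likelihood test. That is 74.5% of them, where the same test called 59.6% of all 11972 tested genes (30.5% higher and 29.2% lower). Changes of at least 2-fold were called for 15 guidance genes (31.9%), 3 higher and 12 lower, and for 10.9% of all tested genes (4.32% higher and 6.53% lower). Of the 15, Epha1, Epha7, Plxnc1, Sema6d, Unc5a and Unc5c passed the filter on low counts only through WT libraries, and Sema3c only through KO libraries. The direction of their calls was largely set by the filter, and counts by direction, also by role, rest partly on them. Ntn4 (29 counts over KO, 3 over WT) and Sema4f (21 and 0) were below the filter. By role, 10 of 25 tested ligands rose and 7 fell, with a median log2 fold change of 0.18. Of 22 tested receptors 4 rose and 14 fell, with a median of −0.61. The median over all tested genes was 0.0028. It depended on gene length, at −0.22 in the longest 10% and 0.13 in the shortest 10% of tested genes, and the median length, derived from counts and FPKM, was 5898 bases for the tested guidance genes and 3578 bases for all tested genes. With the length trend removed from each library, an alternative chosen after seeing the data, the receptor median was −0.41 with 5 rises and 15 falls, and the ligand median 0.19 with 12 rises and 7 falls. The genes of each family share sequence and function and are not replicates of one another. As the set was chosen with earlier results known, its shares beside those of all genes are descriptive. KO and WT libraries did not overlap in CPM (counts divided by the library's scaled total) for 38 of the 47 genes (80.9%), against 67.6% of all tested genes.

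**Figure D1:**
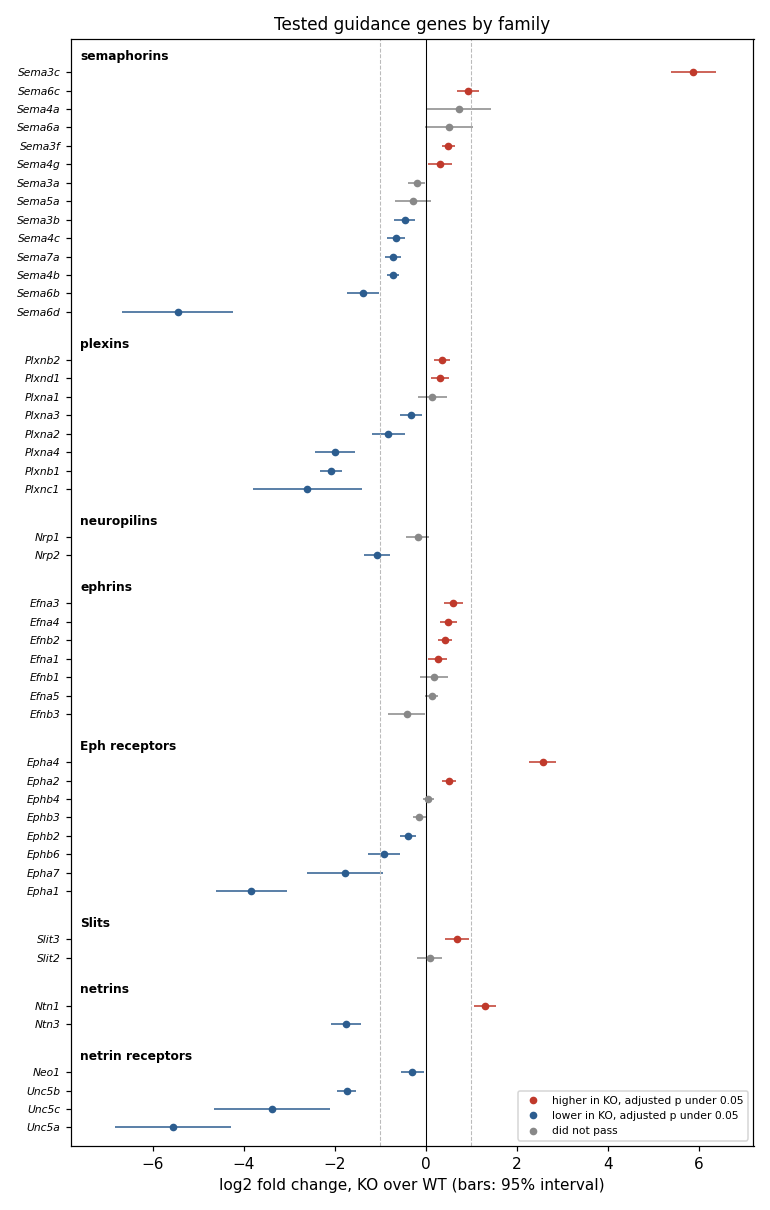
Log2 fold change of each tested guidance gene (points) with its 95% interval (bars), KO over WT, by family; dashed lines mark 2-fold. Sema3c lies farthest to the right at 5.87, and Unc5a and Sema6d farthest to the left at −5.56 and −5.46.

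Sema3c, a secreted semaphorin that signals through neuropilins with plexin A or plexin D1 partners, had the largest rise. It had 704, 508 and 611 counts in KO libraries 1, 2 and 3, against 12, 6 and 11 in WT libraries 1, 2 and 3. In CPM these were 38.2, 27.7 and 34.4 in KO, against 0.694, 0.360 and 0.632 in WT. Every KO library lay far above every WT library. The log2 fold change was 5.87 ± 0.22 (SE; adjusted p = 1.3e-07). The ratio of the summed counts, KO over WT, was 59.2 with a 95% counting interval of 41.1 to 88.7 (exact binomial), which covers counting error only. The sequence of its promoter is shown because no other member rose as much. The 250 bases before a listed RefSeq start of Sema3c (chr5:17574566-17574815, GRCm38.p6, plus strand) are given 5′ to 3′, with capitals marking each CG.
Sema3c: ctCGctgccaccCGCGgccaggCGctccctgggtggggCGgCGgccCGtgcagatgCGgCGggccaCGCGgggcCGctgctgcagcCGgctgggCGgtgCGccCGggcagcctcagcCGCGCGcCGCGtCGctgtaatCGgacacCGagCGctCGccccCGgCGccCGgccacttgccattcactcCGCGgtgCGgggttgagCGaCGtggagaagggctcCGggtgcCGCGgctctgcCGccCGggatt
This window holds 39 CG dinucleotides, a number reached by 1.57% of 32851 promoter windows of the same length in the RefSeq table, whose median is 6. It holds the motif GGGCGG on at least 1 strand, as do 32.7% of all windows, and not TATAAA, found in 12.4%. Both strands were searched, and each GGGCGG contains a CG.

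The other secreted semaphorins moved less. Sema3f, which acts mainly through neuropilin 2, had 51.7, 53.5 and 52.4 CPM in KO libraries, against 38.2, 38.4 and 35.3 CPM in WT libraries. It rose by 0.49 ± 0.061 on the log2 scale (adjusted p = 1.37e-04). Sema3b fell, with 7.67 ± 0.514 CPM in KO and 10.6 ± 0.0769 CPM in WT (SD, n = 3 each; log2 fold change −0.47 ± 0.099). Sema3a, the founding collapse factor of growth cones, averaged 26.7 ± 2.49 CPM in KO and 30.7 ± 0.823 CPM in WT and did not pass (−0.20 ± 0.082, adjusted p = 0.056). Per length, Sema3c reached 6.77 ± 1.06 FPKM in KO, near Sema3f at 8.93 ± 0.192 FPKM, while in WT it lay at 0.113 ± 0.0356 FPKM and Sema3f at 6.30 ± 0.289 FPKM. Sema3d and Sema3g had 1 and 8 counts over all KO libraries, against 0 counts for both over all WT libraries, and neither was tested.

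Sema5a, a membrane semaphorin, had the highest mean FPKM of the semaphorins, at 17.8 ± 4.79 FPKM in KO and 21.4 ± 0.887 FPKM in WT. Its CPM was 238, 140 and 237 in KO libraries 1, 2 and 3, against 238, 251 and 258 in WT libraries. KO replicate 2 lay below all other libraries, and the difference between groups did not pass (−0.28 ± 0.17, 95% interval −0.67 to 0.11). Sema4b, Sema4c and Sema7a fell by 0.72 ± 0.060, 0.66 ± 0.088 and 0.72 ± 0.080 on the log2 scale. Sema4c is a ligand of plexin B2, and Sema7a is held by a lipid anchor and binds plexin C1 and integrins. Sema4b ranged from 36.5 to 38.6 CPM in KO and from 60.9 to 65.1 CPM in WT.

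The Sema6 group, transmembrane ligands of A-type plexins, had 1 rise and 2 falls among 4 tested genes. Over all tested genes, 30.5% rose and 29.2% fell. Sema6d had 0, 5 and 0 counts in KO libraries 1, 2 and 3, against 90, 66 and 67 in WT libraries. The 5 counts all lay in KO replicate 2, and the groups did not overlap. The ratio of summed counts, WT over KO, was 47.3 (95% counting interval 20.0 to 147), and the fitted log2 fold change of −5.46 ± 0.54 became −9.25 without KO replicate 2, so its size depends on that library. Sema6b fell, with 3.20, 2.56 and 3.27 CPM in KO, against 7.86, 8.81 and 6.89 CPM in WT (−1.38 ± 0.16, adjusted p = 8.28e-05). Sema6c rose, with 13.9 ± 1.38 CPM in KO and 7.28 ± 0.405 CPM in WT (0.93 ± 0.11). Sema6a, at 3.30 ± 0.841 CPM in KO and 2.32 ± 0.333 CPM in WT, did not pass with all libraries (0.51 ± 0.23, adjusted p = 0.0883) and passed without KO replicate 2 (0.71).

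Of the remaining semaphorins, Sema4g rose slightly (0.30 ± 0.11, adjusted p = 0.0452), a call lost in 10 of 13 alternative settings. Sema4a, at 1.54 ± 0.394 CPM in KO and 0.938 ± 0.286 CPM in WT, did not pass (0.72 ± 0.32, adjusted p = 0.0788). Sema4f had 21 counts over the KO libraries and 0 over the WT libraries, and Sema4d had 14 in KO and 2 in WT. Both were below the filter. Over the family, 4 of 14 tested semaphorins rose and 6 fell, with a median log2 fold change of −0.24, or −0.10 without KO replicate 2 and −0.05 with the length trend removed. The share called was 71.4%, against 59.6% of all tested genes, where 30.5% rose and 29.2% fell.

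Of the plexins, the signal-transducing receptors of semaphorins, the 2 that rose were among the 3 with the highest mean FPKM. Plxnb2, the highest, rose modestly, with 514, 442 and 527 CPM in KO libraries 1, 2 and 3, against 382, 396 and 382 CPM in WT libraries (0.35 ± 0.073, adjusted p = 0.00278). Plxnd1, known for guiding vessels and as a partner of Sema3c and Sema3e, rose by 0.31 ± 0.087 (132 ± 15.3 CPM in KO, 106 ± 4.65 CPM in WT). Plxna1, second in mean FPKM, had 7691, 5155 and 7480 counts in KO libraries 1, 2 and 3, against 5637, 5876 and 5831 in WT libraries. KO replicates 1 and 3 lay above and KO replicate 2 below the WT range, and the difference did not pass (0.14 ± 0.14, adjusted p = 0.389). Without KO replicate 2, Plxna1 passed with a log2 fold change of 0.31.

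The 5 plexins with the lowest mean FPKM among those tested fell. Plxnb1, a receptor of Sema4d, had 7.65, 6.10 and 8.28 CPM in KO libraries, against 30.2, 32.0 and 31.6 CPM in WT libraries. No library of either group came near the other group. The log2 fold change was −2.09 ± 0.11 (adjusted p = 7.82e-07). Plxna4, a receptor in Sema3a and Sema6 signalling, had 11.4, 6.92 and 14.2 CPM in KO, against 44.2, 43.5 and 42.4 CPM in WT (−2.0 ± 0.19). It varied more within KO than within WT. Plxna2 fell by 0.82 ± 0.16 and Plxna3 by 0.33 ± 0.11 on the log2 scale. Plxnc1, the plexin that binds Sema7a, had 7 counts over the KO libraries and 42 over the WT libraries, a ratio WT over KO of 6.37 (95% counting interval 2.83 to 16.8). Of its 7 counts, 5 lay in KO replicate 2, and without that library the fitted log2 fold change was −3.72 in place of −2.61. Plxnb3 had 1 count in KO and 3 in WT and was not tested. In all 2 plexins rose and 5 fell of 8 tested, and the median was −0.58, or −0.42 without KO replicate 2. The share called was 87.5%, against 59.6% of all tested genes, where 30.5% rose and 29.2% fell. Plxnc1 passed the filter on low counts only through its WT libraries.

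Neuropilins, the coreceptors for secreted semaphorins and for forms of VEGF, were led by Nrp2. Nrp2 had 344, 241 and 351 CPM in KO libraries 1, 2 and 3, against 653, 667 and 665 CPM in WT libraries. All KO libraries lay below all WT libraries, and KO replicate 2 was the lowest. The log2 fold change was −1.09 ± 0.13 (adjusted p = 9.73e-05) with all libraries and −0.93 without KO replicate 2, and it passed in both. Nrp1 averaged 49.9 ± 7.45 CPM in KO and 56.5 ± 4.41 CPM in WT and did not pass (−0.18 ± 0.11, 95% interval −0.43 to 0.07). Nrp2 held 88.1 ± 0.641% of the summed neuropilin FPKM in KO and 93.3 ± 0.432% in WT. In all 3 KO libraries Sema3c lay above and its coreceptor Nrp2 below every WT library.

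**Figure D2:**
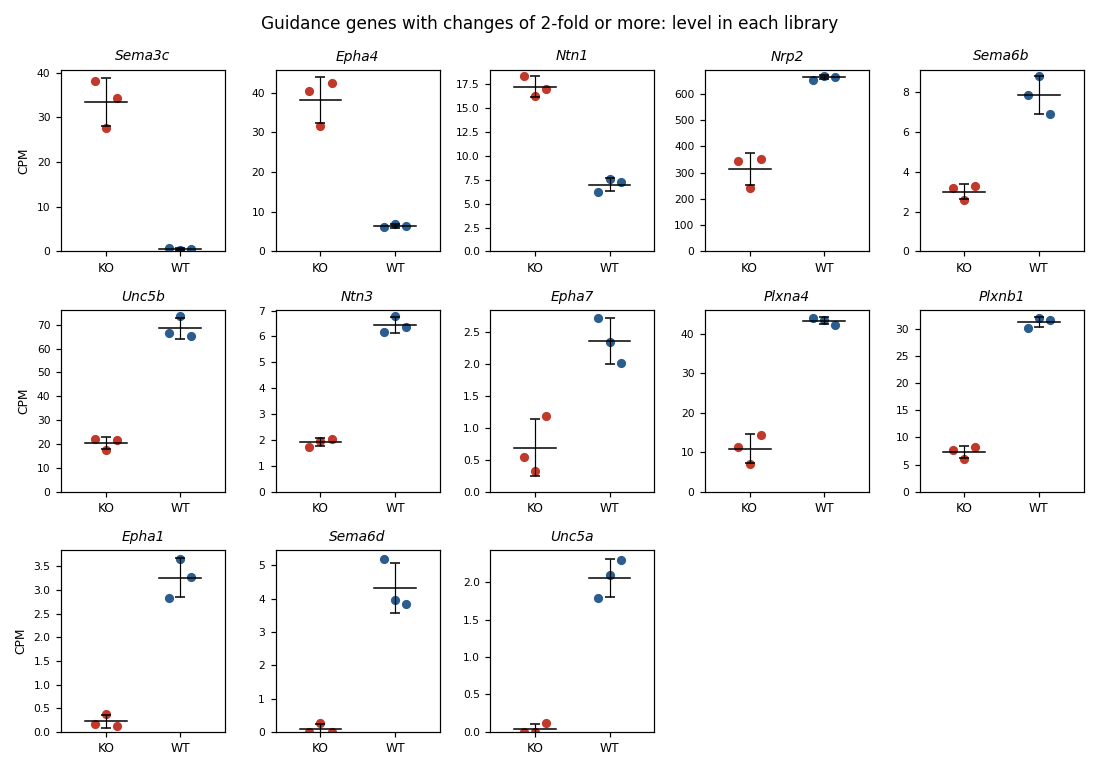
CPM in each library (points), mean (long line) and SD (bar) for the 13 guidance genes called with a change of 2-fold or more and a mean of at least 1 CPM; the axes start at 0 and differ between panels. In each panel the 3 KO libraries and the 3 WT libraries do not overlap.

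The ephrins, ligands of Eph receptors, had a slightly positive median log2 fold change, at 0.26, or 0.16 without KO replicate 2. Of 7 tested, 4 rose, 0 fell and 3 did not pass, and no change reached 2-fold. The share called was 57.1%, near the 59.6% of all tested genes. Over all tested genes, 30.5% were called higher and 29.2% lower. Efna3 had 14.5, 14.6 and 13.3 CPM in KO libraries, against 8.96, 9.35 and 9.65 CPM in WT libraries (0.60 ± 0.091, adjusted p = 4.61e-04). Efna4 had 16.9, 17.8 and 16.4 CPM in KO, against 12.4, 12.2 and 11.7 CPM in WT (0.49 ± 0.082). Efnb2, the transmembrane ligand known from arteries and also a ligand of EphB4, had 82.2, 74.7 and 83.8 CPM in KO, against 57.4, 59.4 and 63.2 CPM in WT (0.42 ± 0.068). For these 3 genes each KO library lay above each WT library. Efna1 had the highest FPKM of the ephrins, 22.1 ± 2.77 in KO and 18.4 ± 1.04 in WT. Its rise of 0.26 ± 0.095 (adjusted p = 0.041) was lost under DESeq2, without KO replicate 3 and without any 1 of the WT libraries. Efna5 (0.13 ± 0.064), Efnb1 (0.18 ± 0.13) and Efnb3 (−0.42 ± 0.18) did not pass, and Efna2, with 14 counts over the KO libraries and 22 over the WT libraries, was not tested.

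Of the Eph receptors, 2 of 4 tested A-type genes rose and 2 fell, and 0 of 4 B-type genes rose and 2 fell. Over all tested genes 30.5% rose and 29.2% fell, and with 4 genes a type these counts do not set the types apart. The A-type genes that fell, Epha1 and Epha7, passed the filter on low counts only through their WT libraries. Epha4, a receptor that binds ephrins of both the A and the B type, had 747, 581 and 752 counts in KO libraries 1, 2 and 3, against 105, 115 and 110 in WT libraries. In CPM these were 40.5, 31.7 and 42.3 in KO, against 6.07, 6.89 and 6.32 in WT. The groups were far apart, and the log2 fold change was 2.57 ± 0.13 (adjusted p = 7.46e-07), 5.94-fold. Epha2, a receptor of ephrin A1, rose by 0.50 ± 0.067, with 92.0, 86.4 and 87.8 CPM in KO, against 67.3, 58.3 and 62.6 CPM in WT.

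Epha1 and Epha7 were low in both groups and lower in KO. Epha1 had 3, 7 and 2 counts in KO libraries, against 49, 61 and 57 in WT libraries. The ratio of summed counts, WT over KO, was 14.8 (95% counting interval 8.23 to 29.2). The fit gave a log2 fold change of −3.84 ± 0.34, and of −4.49 when KO replicate 2 was left out. Epha7 had 10, 6 and 21 counts in KO, against 47, 39 and 35 in WT (−1.78 ± 0.37, adjusted p = 0.00284). KO replicate 3 was the nearest to WT, and without it the value was −2.42. Epha10 had 17 counts over the KO libraries and 34 over the WT libraries, Epha8 had 9 in KO and 1 in WT, and neither was tested.

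The B-type receptors stayed within 2-fold. Ephb4 had the highest FPKM of all Eph receptors, with 102, 97.2 and 99.6 CPM in KO, against 97.9, 95.2 and 94.5 CPM in WT. The groups overlapped (0.05 ± 0.054, 95% interval −0.07 to 0.18, adjusted p = 0.409). Ephb3 did not pass (−0.15 ± 0.065, adjusted p = 0.0811). Ephb2 fell by 0.40 ± 0.081 and the kinase-dead receptor gene Ephb6 by 0.92 ± 0.15 on the log2 scale. Ephb6 had 3.69, 4.47 and 4.28 CPM in KO, against 8.32, 6.47 and 8.67 CPM in WT.

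The Slit ligands were among the most abundant guidance transcripts. Slit3 had 556, 400 and 558 CPM in KO libraries 1, 2 and 3, against 311, 321 and 315 CPM in WT libraries. Each KO library was above each WT library, and KO replicate 2 was the nearest to WT. Slit3 rose by 0.68 ± 0.12 on the log2 scale (adjusted p = 0.001), and by 0.82 without KO replicate 2. Slit2 had 552, 388 and 556 CPM in KO, against 464, 474 and 476 CPM in WT. As with Plxna1, KO replicates 1 and 3 lay above and KO replicate 2 below the WT range, and the difference did not pass with all libraries (0.08 ± 0.12, adjusted p = 0.582). Without KO replicate 2 it passed at 0.24. Per length, Slit3 (101 ± 17.8 FPKM in KO, 62.9 ± 1.04 in WT) was above Slit2 (42.1 ± 7.89 FPKM in KO, 39.5 ± 0.549 in WT) in every library. Slit1 had 4 counts over the KO libraries and 6 over the WT libraries. Of the Robo receptors, Robo3 had 3 counts in KO and 3 in WT, and Robo4 had 0 in KO and 4 in WT. Neither was tested. Robo1 and Robo2 were not analysed here.

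The 2 tested netrins moved in opposite directions. Ntn1, the classic secreted netrin, had 339, 298 and 302 counts in KO libraries 1, 2 and 3, against 107, 126 and 126 in WT libraries. In CPM these were 18.4, 16.2 and 17.0 in KO, against 6.18, 7.55 and 7.24 in WT (1.30 ± 0.11, adjusted p = 1.21e-05). Ntn3 had 32, 36 and 36 counts in KO, against 107, 113 and 111 in WT, and fell by 1.75 ± 0.15 on the log2 scale (adjusted p = 1.31e-05). Neither gene's groups overlapped. Ntn1 held 82.6 ± 2.23% of the summed netrin FPKM in KO and 46.5 ± 1.48% in WT (SD, n = 3 each), and Ntn3 held 10.7 ± 1.20% in KO and 50.3 ± 1.85% in WT. Ntn4 had 29 counts over the KO libraries and 3 over the WT libraries, and it was below the filter. Without the filter on low counts its adjusted p was 0.0077 in edgeR, and it was 0.0101 in DESeq2.

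All 4 measured netrin receptors fell, and the 3 Unc5 receptors fell by more than 2-fold. Over all tested genes, 29.2% were called lower, and 6.53% were called lower by 2-fold or more. Unc5a and Unc5c passed the filter on low counts only through their WT libraries, so the direction of their calls was largely set by the filter. Unc5b, which also has a role in vessels and in cell survival, had 404, 323 and 388 counts in KO libraries 1, 2 and 3, against 1152, 1225 and 1139 in WT libraries. In CPM these were 21.9, 17.6 and 21.8 in KO, against 66.6, 73.4 and 65.4 in WT. The log2 fold change was −1.74 ± 0.094 (adjusted p = 1e-06). Unc5a had 0, 0 and 2 counts in KO, against 31, 35 and 40 in WT, a ratio WT over KO of 56.2 with a wide 95% counting interval of 15.2 to 471. The fit gave −5.56 ± 0.56 on the log2 scale, and −8.19 when KO replicate 3, the KO library that held both counts, was left out. Unc5c had 2, 0 and 2 counts in KO, against 13, 15 and 15 in WT, a ratio of 11.4 (4.15 to 43.8). Per length, Unc5b (3.50 ± 0.406 FPKM in KO, 11.6 ± 0.741 in WT) far exceeded Unc5a and Unc5c, which were at most 0.214 FPKM in any library. Dcc and Unc5d were not analysed here.

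Promoter windows of the 3 Unc5 genes are printed because these genes fell together while they differ in level. Each is the 250 bases before a RefSeq start in GRCm38.p6, read 5′ to 3′ on the strand of the gene, with each CG in capitals: Unc5a at chr13:54949161-54949410 on the plus strand, Unc5b at chr10:60831582-60831831 on the minus strand and Unc5c at chr3:141465314-141465563 on the plus strand.
Unc5a: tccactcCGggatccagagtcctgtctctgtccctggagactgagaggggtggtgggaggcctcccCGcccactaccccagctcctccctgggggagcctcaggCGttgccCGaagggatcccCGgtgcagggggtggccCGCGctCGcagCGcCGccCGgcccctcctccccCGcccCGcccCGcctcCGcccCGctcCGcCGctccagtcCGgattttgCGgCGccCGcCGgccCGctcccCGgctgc
Unc5b: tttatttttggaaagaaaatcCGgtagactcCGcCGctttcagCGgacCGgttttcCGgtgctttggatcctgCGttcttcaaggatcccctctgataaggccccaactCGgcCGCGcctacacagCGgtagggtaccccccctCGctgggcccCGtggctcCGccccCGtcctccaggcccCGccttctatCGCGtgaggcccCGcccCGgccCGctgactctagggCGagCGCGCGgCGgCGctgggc
Unc5c: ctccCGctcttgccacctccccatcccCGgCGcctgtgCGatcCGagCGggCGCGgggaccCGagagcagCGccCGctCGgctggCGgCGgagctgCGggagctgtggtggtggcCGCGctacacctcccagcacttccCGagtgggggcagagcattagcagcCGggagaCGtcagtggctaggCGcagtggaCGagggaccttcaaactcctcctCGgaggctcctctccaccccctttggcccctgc
They hold 25, 27 and 23 CG dinucleotides, numbers reached by 10.7%, 8.56% and 13.3% of all windows. The motif GGGCGG is found in those of Unc5a and Unc5b and not in that of Unc5c, and TATAAA in none of the 3. A match describes these letters only. Over all members, 52 had an entry in the table, with a median of 16 CG per window. Of the 66 member windows, 24 ended directly before the start of the RefSeq gene, so a listed start need not be the gene start.

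Neo1, which encodes neogenin, was the most abundant netrin receptor. It had 142, 104 and 145 CPM in KO libraries 1, 2 and 3, against 158, 163 and 161 CPM in WT libraries. Its fall of 0.30 ± 0.11 (adjusted p = 0.0418) was lost without any 1 of the WT libraries. Without KO replicate 2 it was 0.17 and passed. As Unc5b fell more, Neo1 held 83.0 ± 0.775% of the summed netrin receptor FPKM in KO and 63.9 ± 1.17% in WT, and Unc5b held 17.0 ± 0.822% in KO and 35.2 ± 1.20% in WT.

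**Figure D3:**
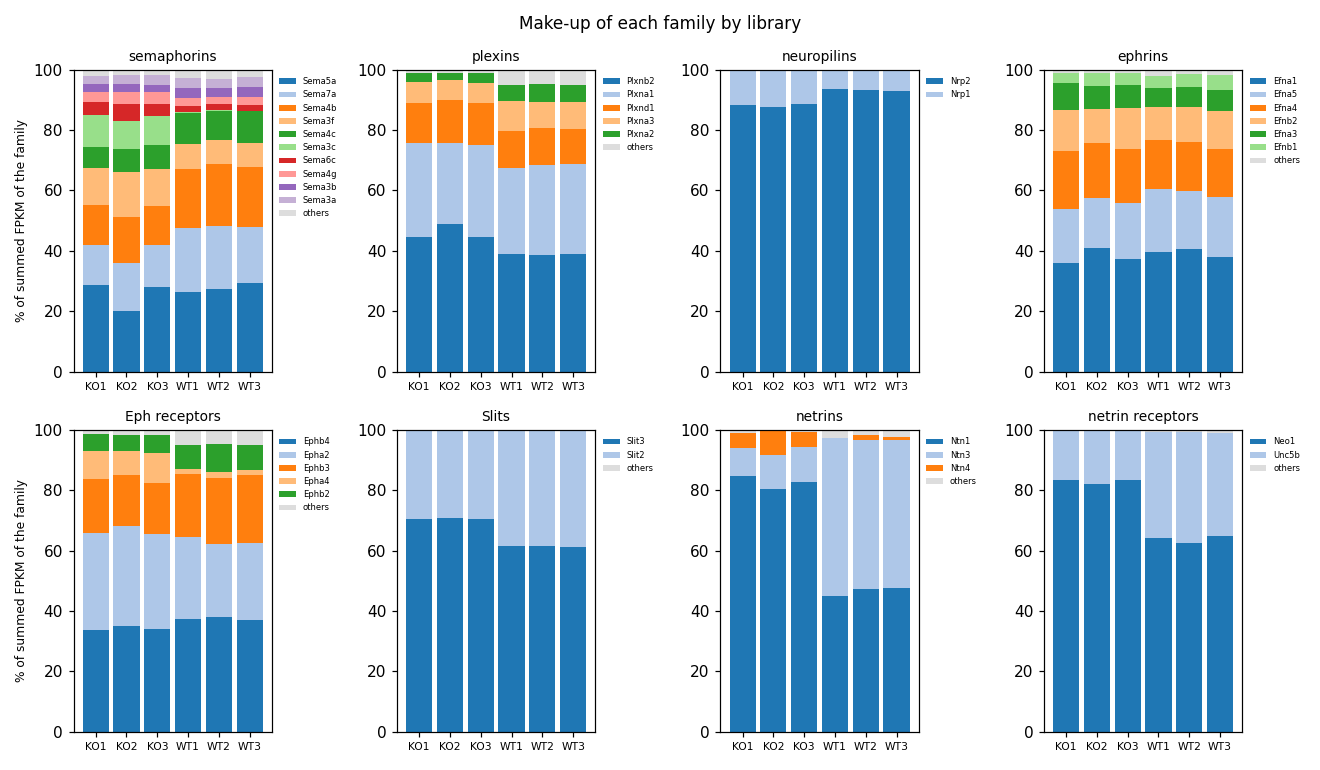
Share of the summed FPKM of each family held by its members, in each library (bars; members under 3% in both groups are pooled as others). Ntn1 holds 80.3% to 84.8% of the netrins in KO libraries and 44.8% to 47.6% in WT libraries, and Sema3c, nearly absent from WT bars, holds 9.25% to 10.8% of the semaphorins in KO libraries.

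Levels per length were also summed over each family. Neuropilins summed to 43.7 ± 8.10 FPKM in KO and 87.1 ± 1.38 FPKM in WT, and netrin receptors to 20.7 ± 3.29 FPKM in KO and 33.0 ± 1.04 FPKM in WT. Slits summed to 143 ± 25.7 FPKM in KO and 102 ± 1.45 FPKM in WT. Plexins (139 ± 19.0 FPKM in KO, 127 ± 3.21 in WT) and semaphorins (68.5 ± 6.51 FPKM in KO, 77.8 ± 1.87 in WT) had means that differed by less than the KO spread for plexins and by more than it for semaphorins. Ephrins and Eph receptors summed to 58.1 ± 3.30 and 66.7 ± 2.69 FPKM in KO, against 46.6 ± 1.08 and 58.4 ± 1.15 FPKM in WT. Slit3 held 70.6 ± 0.282% of the Slit FPKM in KO and 61.4 ± 0.299% in WT. This share was nearly the same in KO replicate 2 (71.0%) as in KO replicates 1 and 3 (70.5% and 70.4%), although both Slit levels were lower there.

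KO replicate 2 deviated with gene length. Its log2 CPM minus the mean of KO replicates 1 and 3 had a median of −0.33 in the longest 10% of tested genes and of 0.30 in the shortest 10% (Spearman's rho with derived gene length −0.67 across 11972 genes, which are not independent replicates). The median over the 47 tested guidance genes was −0.21, and 33 of them were lower in KO replicate 2 than in both other KO libraries. The same count was not made over all tested genes, so it is not read as a trait of the guidance genes. Sema5a, Plxna4, Plxna2 and Plxna1 deviated by −0.76, −0.84, −0.69 and −0.58. Without KO replicate 2, 19 guidance genes rose and 21 fell. More of all genes were called there too: 4350 rose and 4236 fell of 12082 tested, against 3646 and 3490 of 11972 with all libraries. Slit2 (0.24), Plxna1 (0.31), Efna5 (0.14), Sema6a (0.71) and Sema4a (0.92) were called higher in that comparison and did not pass with all libraries, whereas Nrp2 (−0.93) went below 2-fold. With the length trend removed, 17 guidance genes rose and 22 fell, and Slit2 (0.27) and Plxna1 (0.28) were again called higher. Over all 11972 genes, 4070 rose and 3958 fell in that setting.

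**Figure D4:**
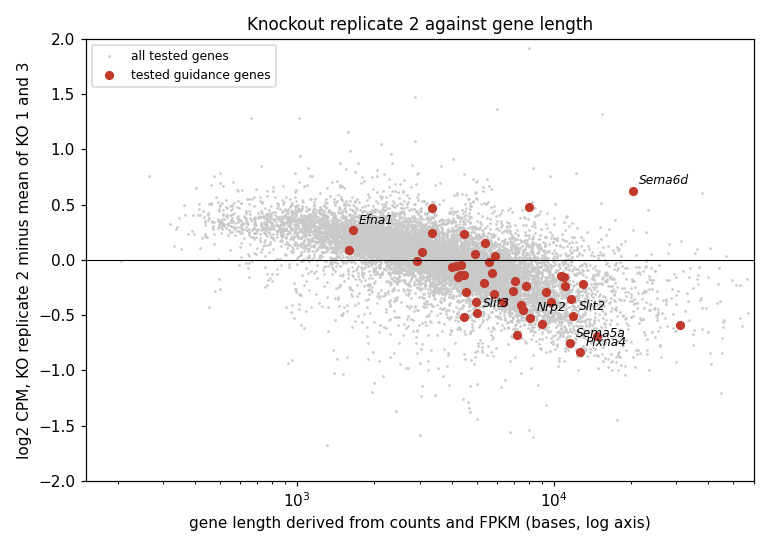
Log2 CPM of KO replicate 2 minus the mean of KO replicates 1 and 3, against gene length on a log axis, for all tested genes (grey) and tested guidance genes (red); 6 genes lie outside the axes. Longer genes lie lower, and most guidance genes lie below 0.

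**Figure D5:**
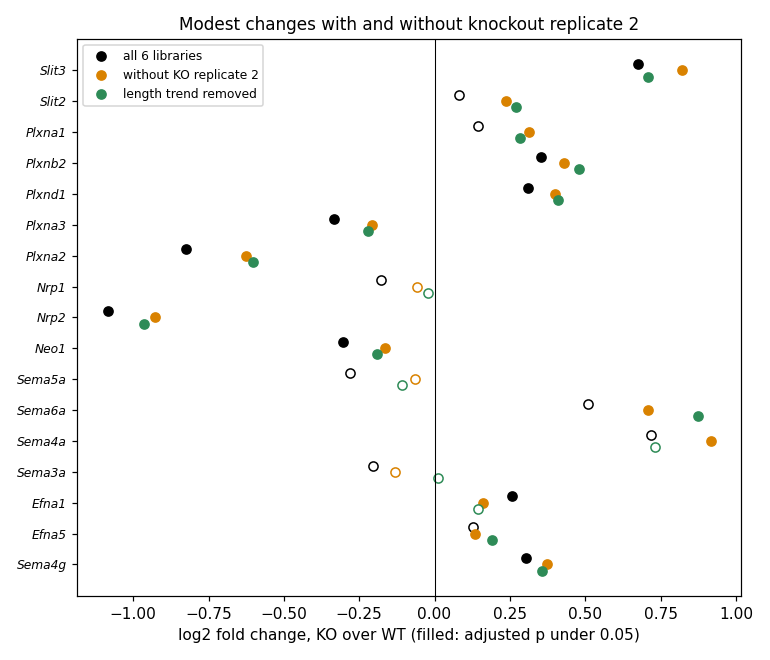
Log2 fold change, KO over WT, of 17 guidance genes, with all 6 libraries, without KO replicate 2 and with the length trend removed. With all libraries, each gene but Nrp2 (−1.09) changed by less than 2-fold. Filled points have an adjusted p under 0.05. Slit2 and Plxna1 are open with all libraries and filled in both alternatives, and Nrp1 and Sema5a are open in all 3.

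Neighbouring genes were compared next. For the 13 guidance genes called at 2-fold or more with a mean of at least 1 CPM, the 5 tested genes on each side were taken from the gene order of RefSeq (GRCm38.p6). They were taken at any distance, and over all tested genes 30.5% rose and 29.2% fell. The median of the neighbours had the same sign as the guidance gene in 6 of 13 cases. Nrp2 had the most neighbours that changed in its own direction. Of its 10 neighbours 9 fell and 0 rose, with a median log2 fold change of −0.61, and Adam23 fell by 2.18. An effect of the region was not tested. Ntn1 lay among 6 rises and 1 fall (median 0.32). Sema3c lay among 2 rises and 5 falls (median −0.22), and Epha4 among 1 rise and 7 falls (median −0.33). Epha1 neighbours Ephb6, and both fell, while the median of the 10 neighbours of Epha1 was 0.01. Of the 10 neighbours of Sema6d 5 rose and 3 fell, and AA467197 fell by 7.07. Neighbours of Unc5a counted 0 rises and 5 falls (median −0.18). Those of Unc5b counted 4 and 3, and those of Plxnb1 1 and 2.

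Downstream and accessory genes of the pathway were described in the same way. Of 43 tested intracellular transducers, 11 rose and 16 fell, with a median log2 fold change of −0.08. The share called was 62.8%, near the 59.6% called over all tested genes. Among the largest rises of those at 5 CPM or more were Rgs3, a regulator of G proteins that binds ephrin B (65.5 ± 6.33 CPM in KO, 33.3 ± 0.557 CPM in WT) and the kinase gene Pak1 (58.8 ± 6.63 CPM in KO, 38.7 ± 1.25 CPM in WT). The largest falls at 5 CPM or more were the kinase gene Abl2 (116 ± 27.1 CPM in KO, 227 ± 2.93 CPM in WT), Arhgef12, the exchange factor bound by B-type plexins (124 ± 29.0 CPM in KO, 231 ± 0.604 CPM in WT), and Rasa1, the Ras GTPase-activating protein gene (118 ± 8.25 CPM in KO, 215 ± 2.49 CPM in WT). Of 16 tested other ligands and coreceptors, 4 rose and 9 fell (median −0.28). The share called was 81.25%, against the same 59.6% over all tested genes, where 30.5% rose and 29.2% fell. Flrt2, a ligand of Unc5 receptors, rose by 0.76 ± 0.12, the receptor gene Met by 0.58 ± 0.098 and the neogenin ligand gene Rgmb by 0.42 ± 0.053. Vegfa, whose product also binds neuropilins, fell to 244 ± 6.27 CPM in KO, against 472 ± 15.9 CPM in WT, and Dag1, which binds Slits, and the heparan sulfate proteoglycan gene Sdc3 fell by 0.55 ± 0.092 and 0.53 ± 0.080. The genes named from these lists at 5 CPM or more had adjusted p of at most 8.70e-04. Below 5 CPM, 6 genes of these lists changed by 2-fold or more and were named after their values were seen. Chn1 (3.33 ± 0.42) and Sh2d3c (1.13 ± 0.21) rose, and Vav3 (−3.89 ± 0.28), Flrt1 (−4.19 ± 0.64), Itga1 (−1.42 ± 0.31) and Flrt3 (−1.13 ± 0.25) fell.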

How the data were processed

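Messenger RNA was sequenced in 3 KO and 3 WT libraries. Per the labels' protocols, 1 µg of total RNA entered the TruSeq Stranded mRNA kit. The submitters' processing notes list GRCm39 as the build and name HTSeq, HISAT2, DESeq, Trimmomatic and Cufflinks. Tool versions, the annotation and the strand setting: not given in the sources used here, so antisense partners may share reads. The authors deposited raw counts per gene. They also deposited FPKM values, which equal the count over the library total and a single length per gene within 8.04e-05%. That length, known up to a common factor, was derived from both tables.

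Genes were kept by filterByExpr with TMM scaling. KO was then tested against WT over 11972 genes in R 4.3.3 by the quasi-likelihood test of edgeR 4.0.16, with Benjamini-Hochberg adjustment and a threshold of 0.05. The standard error is the log2 fold change over the square root of F. CPM uses TMM-scaled totals. The fit was tested on simulated data with known changes. The simulation used a single spread for all genes and no library that deviates with gene length. It thus does not check the fit for a library like KO replicate 2. Promoter sequences and gene order came from RefSeq tables of GRCm38.p6, an earlier build than that of the counts, matched by gene name or number. Alternatives were RLE scaling, no filter, DESeq2 1.42.0, limma-voom and limma 3.58.1 on log2(FPKM + 0.1), a replicate block, each library left out, and a length correction added after seeing the data.

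Members and lists were chosen with earlier results of these data known. Genes given in full are members called at 2-fold or more with a mean of at least 1 CPM, the member of each family with the highest mean FPKM, and the 3 largest rises and falls of each other list among called genes at 5 CPM or more. A further list and 1 gene of this rule are not reported here. Other members are given more briefly, and 0 columns belonged to other samples.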

Additional observations from a re-analysis of the deposited data

How the results depend on the processing

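Over the alternatives run, the count of guidance genes called higher lay between 11 and 19 (14 with the main settings) and lower between 19 and 22 (21), and 13 to 18 were called at 2-fold or more (15). These stayed within 1.5 times the main counts. Over all genes, 6048 to 8586 were called. No call reversed its sign in the alternatives run. With each library left out in turn, the median log2 fold change ranged from −2.78 to −2.24 for netrin receptors from −0.67 to −0.42 for plexins, from −0.33 to −0.10 for semaphorins, from 0.16 to 0.33 for ephrins and from −0.31 to −0.21 for Eph receptors, and with the length trend removed it was −0.41 for plexins and −0.05 for semaphorins. Removing that trend called Slit2, Plxna1, Efna5, Sema6a and Ephb3 and lost Efna1. Without 1 of the WT libraries, Neo1 and Plxna3 (any of 3) and Plxnd1 (replicate 1 or 3) lost their calls, and Sema3a was called lower under RLE scaling and without KO replicate 3. With CPM in place of FPKM, Slit3 held 50.3% of the Slits in KO and 40.1% in WT. The fit with the replicate number as a block called 13 guidance genes higher and 21 lower, and 6692 of all genes. Libraries with the same number did not deviate together (correlations −0.09, −0.11 and 0.02), and 1 of 6 correlated best with its own number. With 3 libraries a group and KO replicate 2 apart, this check cannot settle whether the numbers pair the libraries. Under limma on log2 FPKM, low genes moved most, as the added 0.1 shrinks them: Unc5a was −1.50, Sema6d −1.57, Epha1 −2.71, Unc5c −0.81 and Plxnc1 −0.80, and Sema3c 5.01. Without the low-count filter, Ntn4, Sema3g and Sema4f were also called higher (adjusted p = 0.0077, 0.0461 and 0.00568). Changes in genes with under 50 counts over a group are limited by depth.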
